A study of Drosophila melanogaster with 3 samples.

Results

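The genes described here encode ligands, receptors and a receptor-sorting protein of Drosophila axon guidance: sli, NetA, NetB, robo1, robo2, robo3, fra, Dscam1 and comm. The rule lists them by gene name and uses no measured value, although the list was drawn up with earlier results of these data known. All 9 were found among the 13945 protein-coding genes of the Ensembl annotation on the 6 main chromosome arms, with the same coordinates in RefSeq. Chromatin immunoprecipitation with sequencing (ChIP-seq) had been carried out on whole embryos of mixed sex, aged 0 to 16 hours, from a transgenic Drosophila melanogaster line stably expressing E(spl)mgamma-HLH tagged C-terminally with GFP. The tag was immunoprecipitated with an anti-GFP antibody in 3 biological replicates of this 1 group; an untagged or input group was not analysed here. Peaks were collected from the gene body and 5 kb upstream of each gene, by the position of the summit, in 5 lists on the dm6 genome build: 1 list per replicate, a list called on the replicates pooled, and the authors' set that passed the irreproducible discovery rate (IDR) step, called the reproducible set below. Of the 4524 reproducible peaks, 11 lay in these 9 territories.

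E(spl)mgamma-HLH is a basic helix-loop-helix (bHLH) repressor whose gene responds to Notch signalling. Axons of the embryonic nerve cord decide whether to cross the midline by reading secreted cues from midline cells. Slit, the product of sli, repels axons through the Robo receptors, while the Netrins encoded by NetA and NetB attract axons through Frazzled (fra). Commissureless (comm) lowers the amount of Robo on the surface of crossing axons, and Frazzled is also known to promote comm transcription. Dscam1 encodes a highly spliced immunoglobulin superfamily receptor used in self-avoidance and Netrin responses.

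Reproducible peaks stood at both Netrin genes, at their receptor gene fra, at sli and at robo2, and at no other member. NetA, NetB and fra held 3 peaks each, and sli and robo2 held 1 each. The receptor genes robo1, robo3 and Dscam1 and the sorting gene comm held 0. Thus 5 of 9 members held a reproducible peak, against 37% of all protein-coding genes under the same rule. Longer genes held peaks more often, with 31.6% of genes with territories under 10 kb and 64.5% of those of 80 kb or longer having at least 1. Territories of 40 kb or longer belonged to 7 members, of which 5 held a peak, against 62% of the 542 protein-coding genes of that length. Of the same 7 members, 3 held at least 3 peaks, against 28.4% of those genes. The other 2 members, robo1 and comm, had territories of 13.4 and 11.9 kb and no reproducible peak, against 51.8% of genes with territories of 10 to 40 kb. The members' territories covered 406 kb and held 2.71 reproducible peaks per 100 kb, against 3.38 per 100 kb over the chromosome arms.

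**Figure D1:**
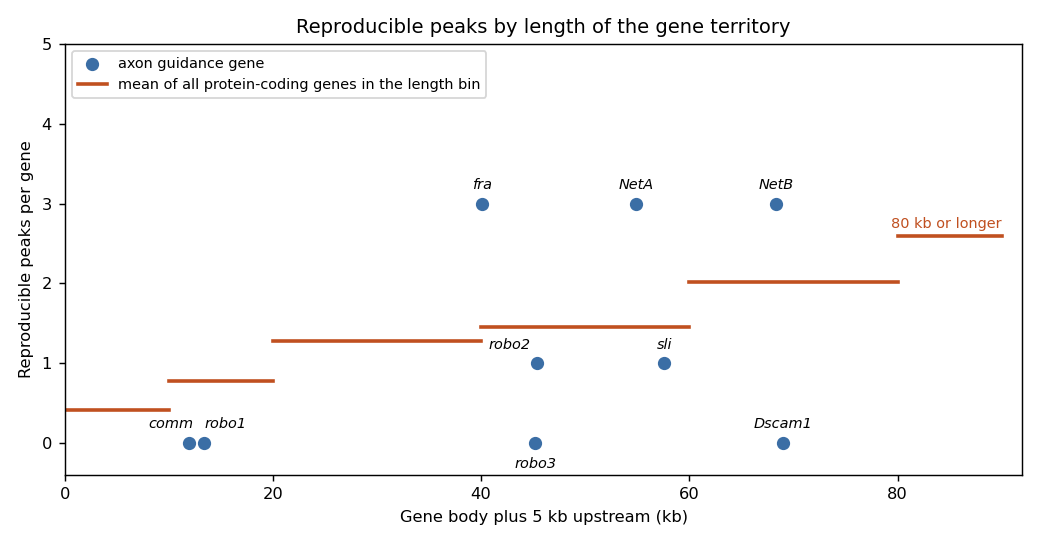
The plot of reproducible peaks by territory length shows the number of reproducible peaks per gene (vertical axis) against the gene body plus 5 kb upstream in kb (horizontal axis); points are the 9 members and lines are means of all protein-coding genes in a length bin, the last one drawn only in part. NetA, NetB and fra, with 3 peaks each, lie above the means of their bins (1.45 peaks for 40 to 60 kb and 2.02 for 60 to 80 kb), and the other 6 members lie below theirs.

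The summit sequences of the robo2 peak, the 3 NetA peaks and NetB peak 3 are shown as examples of the letters under the ligand and receptor peaks described next; those of the other 6 member peaks are not shown. Each reaches 50 bp to either side of the summit, 5′ to 3′ on the plus strand of dm6, read from the RefSeq genome. Capitals mark E-boxes (CANNTG), N-boxes (CACNAG) and the hexamer TTAAAA, each sought on either strand. The robo2 window lies at chr2L:1422859-1422959, the NetA windows at chrX:14627572-14627672, chrX:14612446-14612546 and chrX:14633284-14633384, and the NetB window at chrX:14727754-14727854.
robo2 peak 1: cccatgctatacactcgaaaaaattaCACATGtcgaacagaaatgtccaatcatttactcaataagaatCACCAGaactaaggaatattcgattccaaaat
NetA peak 1: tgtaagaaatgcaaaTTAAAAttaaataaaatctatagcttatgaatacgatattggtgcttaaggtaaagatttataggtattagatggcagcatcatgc
NetA peak 2: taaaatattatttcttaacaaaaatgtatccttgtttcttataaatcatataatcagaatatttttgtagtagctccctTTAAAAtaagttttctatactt
NetA peak 3: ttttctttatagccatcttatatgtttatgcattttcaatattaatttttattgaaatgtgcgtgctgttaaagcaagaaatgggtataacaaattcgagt
NetB peak 3: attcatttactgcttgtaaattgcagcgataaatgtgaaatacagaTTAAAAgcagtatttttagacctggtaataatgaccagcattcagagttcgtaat

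The 11 member windows ranged in GC content between 19.8%, at NetA peak 2, and 46.5%. The mean was 30.5% ± 6.87 (SD, n = 11 windows), against 34.7% ± 8.81 over all 4524 reproducible windows and 33.3% ± 7.54 over the 1612 with an intronic summit. None of the 4 Netrin windows shown holds an E-box or an N-box. The robo2 window holds both, CACATG starting 24 bp before the summit and CACCAG starting 19 bp after it.

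E-box hexamers were about as common at the members as elsewhere. CANNTG stood in 4 of 11 member windows (36.4%), against 35.1% of all reproducible windows. Those 4 each held a different hexamer, CAGCTG at sli, CACATG at robo2, and CATATG and CAAGTG at the fra peaks 2 and 3. CACNAG stood in 2 of 11, at robo2 and at fra peak 1 (CACAAG), against 10.5%. CACGTG and CACGCG, sites known to be bound by Hairy/E(spl) proteins, stood in 0 member windows, against 0.818 and 1.17% of all windows. The Su(H) site (CGTGGGAA, TGTGGGAA, CGTGAGAA or TGTGAGAA) and TATCGATA also stood in 0, against 0.973 and 1.95%. TTAAAA stood in 5 of 11 windows against 31%, and GAGAG in 3 against 9.86%. These counts describe letters in windows of 50 bp to either side of 11 summits, and peaks of 1 gene share a locus.

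**Figure D2:**
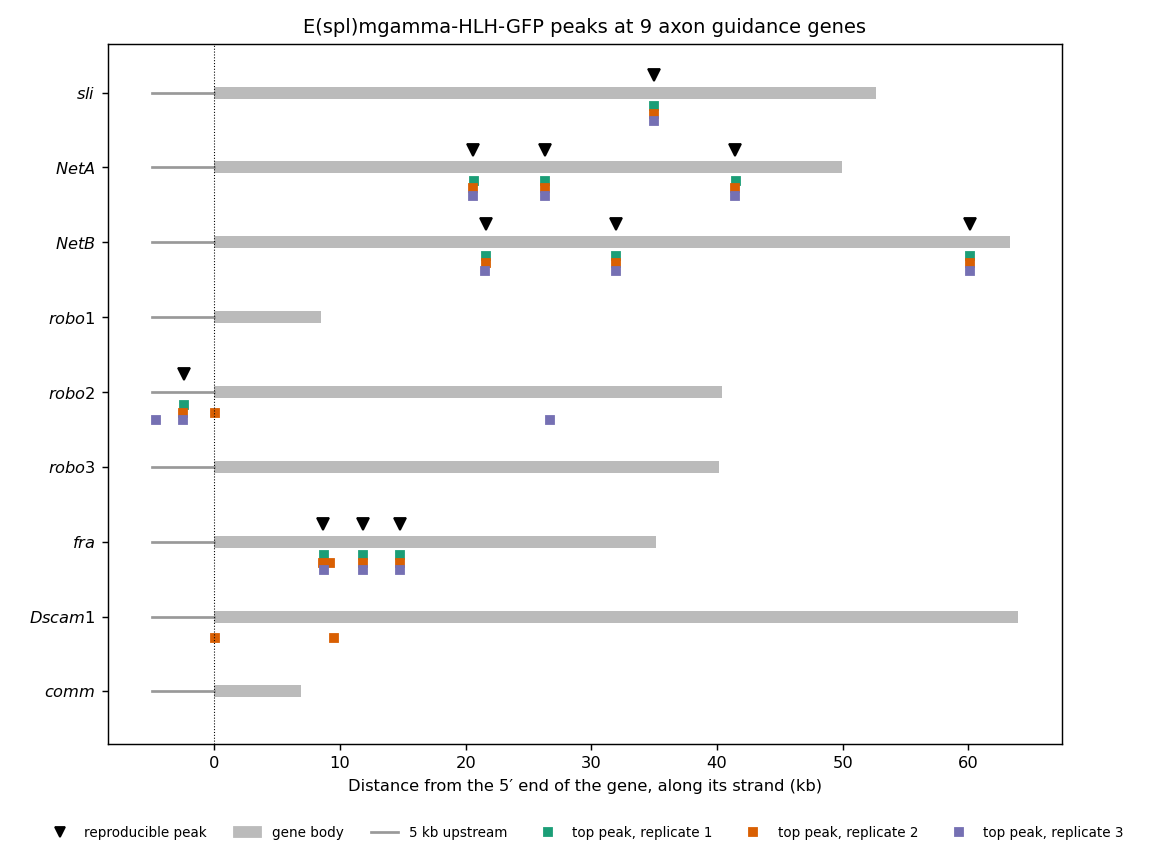
The map of the 9 genes shows distance from the 5′ end of each gene along its strand in kb (horizontal axis). Grey bars are gene bodies, triangles are reproducible peaks, and coloured squares are peaks among the 4524 of highest signal in each replicate. Of the 11 triangles, 10 lie inside gene bodies, and each has a square of all 3 replicates under it.

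The Netrin ligand genes sit next to each other on the X chromosome, in the same orientation and 32.1 kb apart, and carried their peaks deep inside the genes. NetA (chrX:14604012-14653928) had peak 1 in the 31254 bp intron 1 of its canonical transcript (chrX:14627430-14627813), 26212 bp downstream of its nearest own transcription start site (TSS). Signal is the authors' value per peak and is comparable only within a list. Peak 1 of NetA had a signal of 241 and rank 1702 of 4524 in the reproducible set, with ranks 4010, 851 and 1796 in replicates 1, 2 and 3. It was far stronger within the replicate 2 list than within that of replicate 1.

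NetA peak 2 lay in intron 2 (chrX:14612304-14612687), 41338 bp from the TSS. It ranked 1778 of the reproducible peaks, and the replicate lists 1, 2 and 3 put it at 2398, 1627 and 1619. NetA peak 3 lay in intron 1 (chrX:14633142-14633525) with rank 3319 and replicate ranks 3913, 3168 and 2642. Replicate 1 placed all 3 NetA peaks lowest. A further pooled peak in NetA intron 1 (chrX:14634771-14635154, signal 104) stood just outside the set, at pooled rank 5075. For comparison, the lowest signal in the reproducible set was 114.

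NetB (chrX:14686038-14749376) had its strongest peak near its 3′ end. NetB peak 1 (chrX:14689200-14689363, rank 1601) was in the 3′ UTR of exon 9, the last exon. It lay 59758 bp from the nearest NetB TSS and 9684 bp from that of CG5321, the nearest protein-coding TSS. The peak ranked 1601, 1755 and 1559 in replicates 1 to 3. It varied least of the 6 Netrin peaks between the replicate lists. Only 26 of the 4524 reproducible summits (0.575%) were classed as 3′ UTR.

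NetB peaks 2 and 3 lay in the 53377 bp intron 3. Peak 2 (rank 2017) ranked 1521, 2469 and 2873 in replicates 1 to 3, and its nearest protein-coding TSS was that of hog, a gene nested in the intron, 1504 bp away. Peak 3 (chrX:14727612-14727995, rank 3567) ranked 2865, 4339 and 4167. In contrast to NetA, replicate 1 placed these NetB peaks highest. Between the Netrin genes there were 2 more reproducible peaks, of which the one at chrX:14679184-14679567 (rank 4079) lay at -192 bp from the CG5321 TSS and the other was intergenic (rank 4322).

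The Slit ligand gene sli (chr2R:15869495-15922118) had 1 reproducible peak in intron 2 (chr2R:15887058-15887233). It lay 34970 bp from the 5′ end of the gene and 3769 bp downstream of the nearer of the 2 annotated sli start sites, which was also the nearest protein-coding TSS. Its signal was 324 and it ranked 1008, with ranks 1137, 955 and 1288 in replicates 1 to 3. The next pooled peak of sli, in intron 1 (chr2R:15919636-15920019), had a signal of 92.1 and rank 5821.

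Among the Slit receptor genes, robo2 alone had a reproducible peak. It lay at -2456 bp from the robo2 TSS in intergenic sequence (chr2L:1422851-1423038), and it was the only member peak outside a gene body. Its signal was 335 and its rank 944, and it ranked 1259, 776 and 788 in replicates 1 to 3. The peak counted for robo2 through the 5 kb upstream rule, and robo2 had 0 reproducible peaks with 1 kb upstream. Below the set, robo2 had 3 pooled peaks with a q-value under 0.05: one at -4611 bp (rank 5321), one in intron 5 (rank 5490) and one 34 bp inside the TSS (rank 5545).

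The paralogs robo1 and robo3 differed in their weaker peaks. robo1 (chr2R:22692524-22700970), the receptor on which comm is known to act, had its best pooled peak at -58 bp from its TSS (chr2R:22700836-22701219, signal 86.1, rank 6283). The best robo1 peak of each list ranked 18293 of 23367 in replicate 1, 5017 of 30000 in replicate 2 and 4871 of 24251 in replicate 3. It had a q-value under 0.05 in replicates 2 and 3 and not in replicate 1, and the 3 best peaks did not lie at the same place.

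robo3 (chr2L:1256417-1296596), which positions longitudinal axons together with robo2, had the lowest-ranked best pooled peak among the 7 members with long territories. That peak ranked 10159 of 20696 with a −log10 q of 0.743, and 0 pooled peaks had a q-value under 0.05. Replicates 1 and 3 listed 8 and 9 peaks in the robo3 territory, and replicate 2 listed 0, although its list was the longest. In replicate 3, 2 of the 9 had a q-value under 0.05, the best in intron 1 (rank 6102). Such an empty territory in replicate 2 was found for 80 of the 542 protein-coding genes of 40 kb or longer (14.8%). The empty stretch ran for 54.5 kb between neighbouring replicate 2 summits, and 227 of 29994 such gaps were as long or longer. Long gaps each cover more sequence than short ones, so this count is not the share of sequence in such gaps. Over the 83.5 kb between robo3 and robo2, replicates 1, 2 and 3 listed 15, 7 and 14 peaks.

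The Netrin receptor gene fra (chr2R:12529053-12564184) held all 3 of its reproducible peaks in its 26746 bp intron 1. Peak 1 (chr2R:12543746-12543924), 14769 bp from the TSS, had a signal of 335 and rank 943, the best of the 11 member peaks. It ranked 2163, 518 and 982 in replicates 1 to 3, so replicate 2 placed it highest and replicate 1 lowest. Peak 2 (chr2R:12540691-12541074, 11830 bp, rank 1757) ranked 2055, 1968 and 1480. Peak 3 (chr2R:12537493-12537876, 8632 bp) ranked 4315 in the set, near its end, with closely similar ranks of 3997, 4012 and 3936. The nearest protein-coding TSS of all 3 was that of CG33752, a small gene nested in the same intron. In replicate 2 a further top peak of fra (rank 2736, 9216 bp) had no counterpart in the reproducible set.

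Dscam1 (chr2R:7317924-7381899) has the longest territory of the members, 69 kb, and 75 annotated transcripts, and had 0 reproducible peaks. Its best pooled peak was in intron 2 (chr2R:7372242-7372625, signal 94.5, rank 5666), and 3 pooled peaks had a q-value under 0.05. In replicate 2, peaks in intron 2 and at the TSS ranked 3694 and 4247, within the top 4524. The best Dscam1 peak ranked 6354 in replicate 1 and 5843 in replicate 3. The member therefore counted as having a top peak in replicate 2 alone.

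comm (chr3L:15721511-15728430), a gene of 2 exons, had 0 pooled peaks with a q-value under 0.05, and its best pooled peak ranked 12648. Its best peak ranked 6883 in replicate 1 and 12313 in replicate 3, with −log10 q of 0.768 and 0.365. Replicate 2 listed 4 comm peaks with a q-value under 0.05, the best of them at -1115 bp from the TSS (rank 6027). The related gene comm2 on the same arm had a reproducible peak at -4627 bp from its TSS (rank 2782, with 4711, 2552 and 1721 in replicates 1 to 3), and comm3 had 3.

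**Figure D3:**
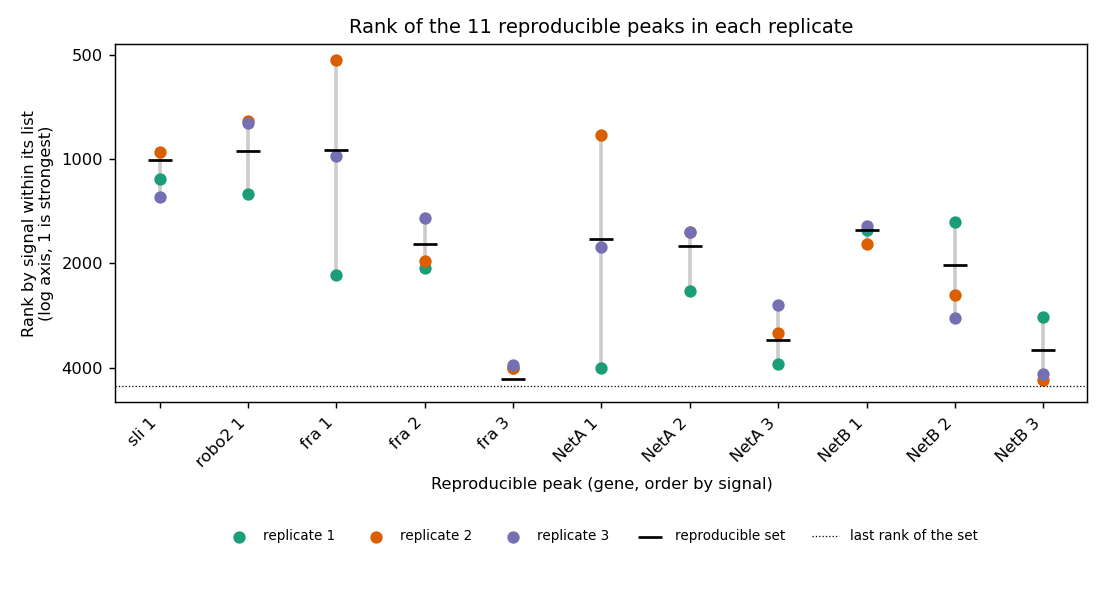
The plot of ranks shows, for each of the 11 reproducible peaks (horizontal axis), its rank by signal within each replicate's list and within the reproducible set (vertical log axis, strongest at the top; dotted line, last rank of the set, 4524). All replicate points lie above the dotted line; the spread is widest at NetA peak 1 (ranks 4010, 851 and 1796 in replicates 1 to 3) and at fra peak 1 (2163, 518 and 982).

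All 11 member peaks had their summit in a peak among the 4524 strongest of every replicate, against 68.5% of the whole reproducible set. The set was derived from the same replicate lists, so this is a description of the set and no separate measure of agreement. By median, the 11 peaks ranked 1757 among the reproducible peaks; their medians in the lists of replicates 1, 2 and 3 were 2163, 1755 and 1619. Ranks ran from 943 to 4315, so none was among the first 452, the strongest 10% of the set, and 8 of 11 ranked at 2262 or better, the stronger 50% of the set. Replicate 1 gave the best rank to 2 of the 11 peaks, replicate 2 to 4 and replicate 3 to 5.

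Counted in each replicate on its own, a top peak was found at 5 of 9 members in replicate 1 (37.4% of all protein-coding genes), at 6 in replicate 2 (35.4%) and at 5 in replicate 3 (37.1%). The 5 members with a reproducible peak had a top peak in all 3 replicates, as did 29.9% of protein-coding genes. In the pooled list with q-values under 0.05, 7 of 9 members had a peak, against 51.4%; robo3 and comm were the members without. These 7 members held 29 such pooled peaks.

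The reproducible peaks of these genes lay away from promoters. Of the 11, 0 had a summit within 500 bp of any annotated TSS (exact Clopper-Pearson 95% interval 0 to 28.5%, counting error only), against 50.1% of all reproducible peaks. The interval treats the 11 peaks as independent, although NetA, NetB and fra held 3 each, so it can be too narrow. Introns held 9 (81.8%, against 35.6%), a 3′ UTR held 1 and intergenic sequence 1. From summit to closest protein-coding TSS the median was 8004 bp (range 1504 to 25042), against 595.5 bp for the whole set. That nearest TSS was the member's own for 3 of 11 peaks, those of sli, robo2 and NetA peak 3. Long introns offer more sequence away from start sites, and the part of gene length in these shares was not tested.

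**Figure D4:**
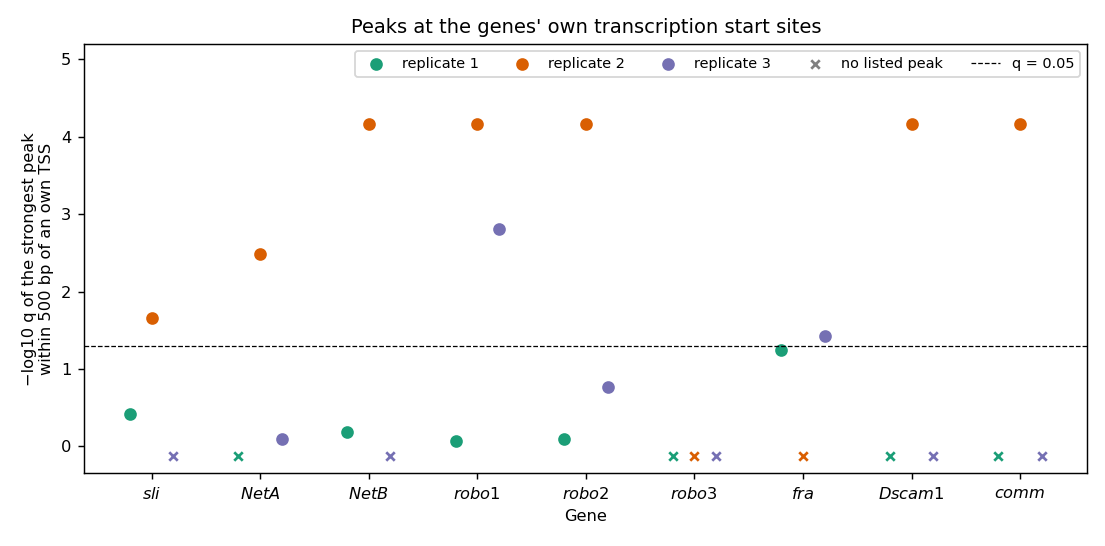
The plot of start site peaks shows, for each gene and replicate, −log10 q (vertical axis) of the strongest peak with its summit within 500 bp of one of the gene's own TSSs; crosses mark genes with no such peak listed and the dashed line marks q = 0.05. Replicate 2 points stand above the line at 7 genes, replicate 3 points at 2 and replicate 1 points at 0.

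At the members' own start sites the replicates differed. In replicate 2, 7 of 9 members had a peak with a q-value under 0.05 within 500 bp of an own TSS, against 37.9% of all protein-coding genes. In replicate 1 the count was 0 of 9, against 22.8%, and in replicate 3 it was 2 of 9, against 26.6%. The 7 genes of replicate 2 were sli, robo1, robo2, comm, NetA, NetB and Dscam1, and the 2 of replicate 3 were robo1 and fra. Replicate 2 also had the most peaks with a q-value under 0.05 genome-wide, 12953 against 5411 in replicate 1 and 7087 in replicate 3.

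At equal list length, with the 4524 top peaks of each list, the replicates differed less at the members' start sites. A top peak at an own TSS was found at 2 of 9 members in replicate 2, robo2 and Dscam1, near the 19.1% of all protein-coding genes. It was found at 0 in replicate 1 (20.5%) and replicate 3 (20.4%). The robo2 start site peak ranked 3385 in replicate 2 (signal 53, 23 bp downstream), against 17170 in replicate 1 and 9014 in replicate 3. At NetB the start site peak ranked 5148 in replicate 2 and 13199 in replicate 1, and replicate 3 listed none. At comm and Dscam1 replicate 2 listed the only start site peaks (ranks 6503 and 4247). Replicate 2 did not rank highest at every start site. At fra, peaks ranked 5523 and 6764 in replicates 1 and 3 and none was listed in replicate 2. The best start site peaks of sli in replicates 1 and 2 lay at different start sites of the gene. Replicate 1 ranked its peak at 9342 (chr2R:15922001-15922356) and replicate 2 its peak at 11291 (chr2R:15890855-15891254), with none listed in replicate 3. At robo1, the best start site peak of replicate 3 (rank 4871, 233 bp downstream) did not overlap those of replicates 2 and 1. Those lay at -19 and -62 bp and ranked 5114 and 18293. At the pooled robo1 peak of -58 bp, replicate 3 ranked 9161.

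**Figure D5:**
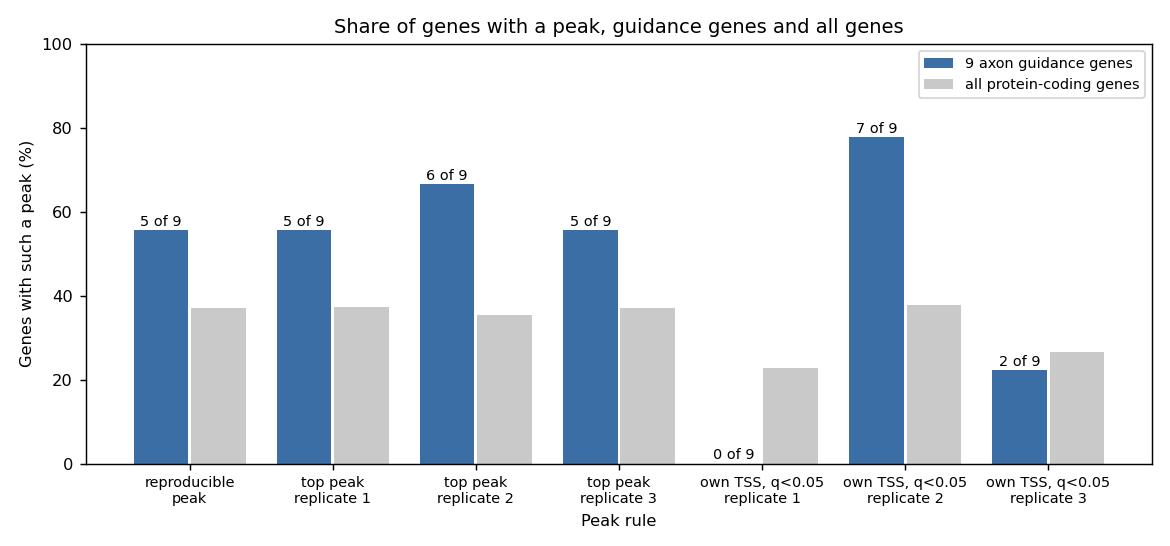
The plot of shares shows, for 7 peak rules (horizontal axis), the percentage of genes with such a peak (vertical axis), with the 9 guidance genes on the left of each pair and all protein-coding genes on the right; bars have no error because each rule gives 1 count. The guidance genes stand at 5 or 6 of 9 under the 4 territory rules and at 0, 7 and 2 of 9 for start site peaks in replicates 1, 2 and 3.

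Replicate 2 was also uneven across the members when all of its listed peaks were counted. At sli it listed 31 peaks, against 12 and 17 in replicates 1 and 3, and at fra 23, against 8 and 11. At Dscam1 each replicate listed 12, and at NetB replicates 1, 2 and 3 listed 15, 15 and 9. Over the 9 territories it listed 32 peaks per 100 kb, against 22.4 per 100 kb over the arms. Replicate 1 listed 18.5 per 100 kb (17.5 over the arms) and replicate 3 listed 22.2 (18.1 over the arms). The lists hold background regions beside peaks, and the replicate 2 list of exactly 30000 peaks can be a set limit. Depth per replicate is unknown, and its part in these differences was not tested.

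Other guidance genes, listed by role from general knowledge of the pathways, had a reproducible peak in 33 of 51 cases (64.7%), with 80 peaks in all, against 37% of all protein-coding genes under the same territory rule. Of the 22 with territories of 40 kb or longer, 17 had one, against 62% of all protein-coding genes of that length. The role counts that follow stand beside the same shares, 37% at any length, 51.8% at 10 to 40 kb and 62% at 40 kb or longer. Further receptor genes had a peak in 7 of 14 (50%). PlexA, a Semaphorin receptor gene, had a promoter peak at -165 bp (rank 362), Lar, a receptor tyrosine phosphatase gene, had one nearest to the CG10366 start site (rank 1068), and unc-5, which encodes the repulsive Netrin receptor, had 4 peaks with the best at -130 bp (rank 1189). Thus the best reproducible peak of unc-5 lay at its promoter, while the reproducible peaks of fra and the Netrin genes lay away from start sites. The places of the other unc-5 peaks are not given here. Below the reproducible set, fra had a pooled peak with a q-value under 0.05 at -184 bp from its TSS (rank 7187). The Dscam1 relatives Dscam2, Dscam3 and Dscam4 had 0, like Dscam1.

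Further ligand genes of any length had a peak in 3 of 7 (42.9%), against 37% of all protein-coding genes. At 10 to 40 kb Wnt4 had a peak and Sema1b, Sema2a and Ephrin had none, against 51.8% of protein-coding genes of that length. At 40 kb or longer 1 of 2 ligand genes had a peak, against 62%. The ligand genes with a peak were Sema1a, a transmembrane Semaphorin gene with 5 peaks (best rank 734, intronic), Wnt5 (rank 1580) and Wnt4 (rank 2308). Sema1b, Sema2a, Sema2b and Ephrin had none. The comm family and Robo sorting genes comm2, comm3 and Nedd4 each had a peak, 3 of 3; the best comm3 peak (rank 756) lay at the Phs promoter and that of Nedd4, which encodes a ubiquitin ligase, at its own promoter (rank 2242).

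Cytoplasmic effector genes of any length had a peak in 8 of 9 (88.9%), against 37% of all protein-coding genes. At 10 to 40 kb all effector genes but Sos had a peak, against 51.8% of protein-coding genes of that length. At 40 kb or longer 3 of 3 effector genes had a peak, against 62%. The best-ranked were those of ena, an actin regulator gene (rank 181, with CG15111 the nearest TSS), RhoGAP93B, which encodes a Robo-binding GTPase-activating protein (-47 bp, rank 446), and Mical (rank 846, with CG3909 nearest). Adhesion and matrix genes had a peak in 8 of 12; 11 of them had territories of 40 kb or longer, of which 8 had a peak, against 62% of all protein-coding genes of that length. The best-ranked peaks were those of Fas3 (rank 587), Ten-a (rank 1454) and side (rank 1718), all intronic. Midline and nerve cord regulators of any length had a peak in 4 of 6 (66.7%), against 37% of all protein-coding genes. At 10 to 40 kb sim and zfh1 had a peak and tup had none, against 51.8% of protein-coding genes of that length. At 40 kb or longer 2 of 2 regulator genes had a peak, against 62%. The best-ranked peaks were those of zfh1 (rank 225), lola (rank 1133) and sim, the master regulator of midline cells (rank 1206).

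Whole embryos mix many cell types, so a peak carries no information on whether midline cells, neurons or other cells held the protein, and fewer bound cells and less protein per cell cannot be told apart. The labels do not say whether the line retains untagged E(spl)mgamma-HLH. No expression was measured in these files.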

How the data were processed

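ChIP-seq of E(spl)mgamma-HLH-GFP was deposited as narrowPeak lists for 3 replicates of 1 group, with chromatin sonicated to 200 to 800 bp per the labels. Per the deposited text records, each dm6 replicate list was called against a control, the pooled list on all 3 alignments, and the optimal IDR set from these 4 lists. Which caller and IDR cutoff were used is not given in the sources used here. The deposited signal (column 7) is a value per peak from the authors' caller, not normalized between lists. The deposited −log10 q-value (column 9) has 1 value, 4.02, throughout the reproducible set. Column 10 is the deposited summit offset. The reproducible set was exactly the 4524 pooled peaks of highest signal. Files hold no read counts, so depth is unknown. The dm3 lists were not used.

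Peaks were ranked by signal within each list with Python 3.11.15 and NumPy 2.4.6 (SciPy 1.17.1 for the binomial interval). Genes came from Ensembl release 115 (BDGP6.54), without transposable elements; all gene territories included 5 kb upstream. A replicate's top peaks are its 4524 of highest signal, and a replicate peak matched when it held the summit. Classes were, in order, promoter (500 bp around a TSS of any gene), 5′ UTR, CDS, 3′ UTR, intron and intergenic; motifs were sought within 50 bp of the summit. Summit sequences of 6 member peaks are not reported here. The assignment of peaks to genes was tested on simulated data. With 1 group and no control lists, no test between groups was made; shares of protein-coding genes are given as background.

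The members and gene lists were chosen with earlier results of these data known. The text names all 9 members with their best peaks and the 3 best-ranked genes with a peak in each further role; genes named for having no peak, and genes beside the members, were named after their values were seen. The length classes and the start site comparison were also chosen after seeing the data.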

Additional observations from a re-analysis of the deposited data

How the results depend on the processing

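The number of members with a reproducible peak was 5 of 9, against 37% of all protein-coding genes. It was 4 with gene bodies alone (11.3% of all protein-coding genes) or with 1 kb upstream (26.4%), which dropped robo2. It was 5 with 10 kb upstream (47.5%), with any overlap of the peak (37.9%) and in the stronger 50% of the set (23.2%). In the looser pooled list it was 7 (51.4%). Leaving out each replicate in turn, with peaks shared by the top lists of the remaining 2, gave 5 members and 11 peaks each time. Without replicate 1, 2 or 3 the shares of all protein-coding genes were 30.7, 32.8 and 30.4%. Since all 11 peaks are top peaks in every replicate, leaving 1 out returns at least those 11 by construction and says nothing about stability. The peak count moved past 1.5 times in the looser pooled list alone, to 29 peaks. The promoter share of member peaks was 0% in the alternatives except that list, where it was 17.2%. The promoter share of all peaks in the looser pooled list is not given here. The median rank as a percentage of the 4524 ranks was 38.8% in the set and moved to 47.8% in the replicate 1 list. Member windows with an E-box numbered 4 within 50 bp of the summit, 2 within 25 bp and 8 within 100 bp, where 35.1, 18.9 and 59.7% of all reproducible windows held one. The background share was 37% of protein-coding genes and 33.8% of all annotated genes. The number of members with a top peak in all 3 replicates was 5, against 29.9% of all protein-coding genes. With 50% as many top peaks it was 4, and the share of all protein-coding genes at that setting is not given here. No paired analysis was possible because the 3 samples form 1 group. Without read counts, the smallest difference between lists that these data could show is unknown.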
